A study of Danio rerio with 6 samples.

Results

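The genes described here are tuft-type chemosensory genes, measured in zebrafish intestinal epithelial cells at 3 and 5 days post fertilization (dpf). rgs13a (ENSDARG00000017653) was chosen by its measured values, a rise in all 5 dpf libraries over the 3 dpf libraries, and the others were listed with it by name because of their known role in tuft cells: pou2f3, trpm5, avil, alox5a, ptgs1 and sh2d6. Of the 7 entries 1, sh2d6, matched no gene name. The name alox5a was absent as well, and without its copy letter it matched 2 genes named ALOX5, so 7 of the 32520 genes in each file were followed. All 7 passed the filter on low counts.

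The cells came from pooled TgKI(cldn15la:tdTomato)pd1249 larvae, in which the claudin gene cldn15la of the gut lining carries a knock-in of the red fluorescent protein tdTomato. Heads were removed, the bodies were dissociated, and cells positive for the reporter were sorted. There were 3 libraries at each age and no other treatment, and all 6 libraries carried this reporter and the same batch label. The treatment field of 3 dpf replicate 3 reads 4 dpf, and its title decided its group. Because sorting was on cldn15la, the pools hold whatever mixture of cells the sort took as positive. Whether RNA of other cells was in the pools as well was not tested. In such bulk samples more cells of a type and more RNA per cell cannot be told apart.

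Tuft cells are rare chemosensory cells of epithelia. As known from the mouse, they detect luminal signals through G protein coupled receptors. A phospholipase and the release of stored calcium then open the cation channel Trpm5, and the cells put out leukotrienes, prostaglandins, acetylcholine and the cytokine interleukin 25. The transcription factor Pou2f3 is required for mouse tuft cells to form.

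Library totals ran from 102653637 to 125456069 counts. The mitochondrial chromosome took 29.2% of the counts in 5 dpf replicate 1 and 7.91 to 11.4% in the other libraries. Levels are given as CPM, the counts of a gene relative to the library total after scaling by TMM factors, which were 0.612 for 5 dpf replicate 1 and 1.00 to 1.27 for the others. Between the ages, 32.1% of the 22386 genes tested passed edgeR's quasi-likelihood test at an adjusted p of 0.05. The sorting marker cldn15la measured 632 ± 93.4 CPM (SD, n = 3) in the younger and 568 ± 293 CPM (SD, n = 3) in the older cells, with a log2 fold change of -0.16 (SE 0.37, edgeR adjusted p = 0.779). Below, CPM written with ± are means and SD over the 3 libraries of an age, "rose" and "fell" are used of genes that passed this test, and log2 fold changes are 5 dpf over 3 dpf.

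Of the 6 genes listed with rgs13a, 3 rose from 3 to 5 dpf: pou2f3, AVIL and the ALOX5 gene on chromosome 13. This is to be read against 18.1% of all genes tested that were called higher at 5 dpf. For 4 of the 6, every 5 dpf library lay above every 3 dpf library, as it did for 26.1% of all genes tested. None of the 6 was called lower by edgeR, at an adjusted or an unadjusted p under 0.05, or by DESeq2. Over all genes tested, edgeR called 14.1% lower at an adjusted p under 0.05, and DESeq2 called 4068 of 22386 lower. TRPM5, ptgs1 and the ALOX5 gene on chromosome 15 did not pass. The median log2 fold change (5 dpf over 3 dpf) of the 6 genes was 1.48, against 0.09 for all genes tested.

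**Figure D1:**
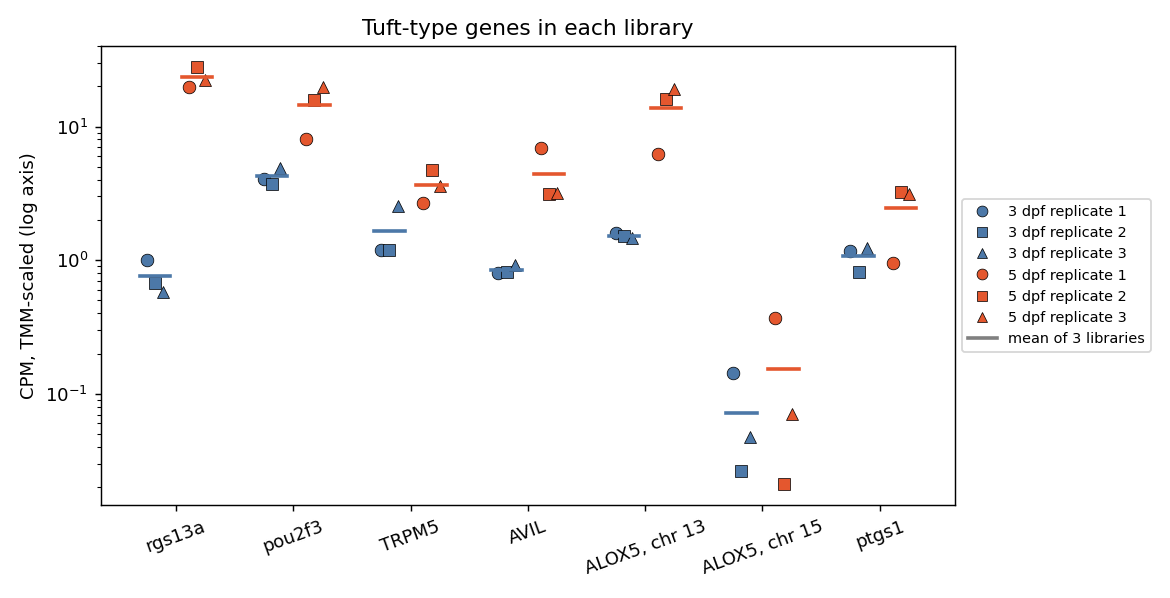
TMM-scaled CPM (vertical log axis) of the 7 genes in each library, with 3 dpf in blue, 5 dpf in red, a marker shape for each replicate number and a bar at the mean of the 3 libraries of an age. The 5 dpf points lie above all 3 dpf points for rgs13a, pou2f3, TRPM5, AVIL and the ALOX5 gene on chromosome 13, while ptgs1 and the ALOX5 gene on chromosome 15 overlap.

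rgs13a (chromosome 2, 6475567 to 6482240 of GRCz11, minus strand) encodes a regulator of G protein signalling, a protein that speeds the return of G proteins to their inactive state. Its raw counts were 106, 77 and 73 at the earlier age and 1505, 3987 and 3169 at the later, in replicate order as throughout. In CPM these are 1.01, 0.681 and 0.580 at 3 dpf against 19.7, 28.0 and 22.3 at 5 dpf. The lowest 5 dpf library was 19.5 times the highest 3 dpf library. The ratio of the means was 30.8, with a log2 fold change of 4.95 (SE 0.31). Since this rise is what chose the gene, it is given as a description, with no test.

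pou2f3 (ENSDARG00000052387, chromosome 5, 58550291 to 58602307, plus strand) is the POU family transcription factor of the tuft lineage in the mouse. It was present at both ages, with 4.08, 3.70 and 4.93 CPM in the 3 dpf replicates and 8.08, 15.7 and 19.7 CPM in the 5 dpf replicates. The ages did not overlap, and 5 dpf replicate 1 lay nearest to the 3 dpf libraries, at 1.91 times their mean against 3.70 and 4.66 times in the others. pou2f3 rose by a log2 fold change of 1.77 (SE 0.35, edgeR adjusted p = 0.00892). With library size as the only scaling the log2 fold change was 1.84 and the call ended (edgeR adjusted p = 0.0508). Over the 15 alternatives, of which one is DESeq2, the adjusted p ran from 3.53e-05 to 0.0508.

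TRPM5 (ENSDARG00000059792, chromosome 7, 48667081 to 48702051, plus strand) encodes the calcium-activated cation channel of taste and tuft cells. It measured 1.20, 1.20 and 2.53 CPM in the 3 dpf replicates and 2.69, 4.70 and 3.59 CPM in the 5 dpf replicates. The ages did not overlap, but by a small margin: 5 dpf replicate 1 was 1.06 times 3 dpf replicate 3, the library whose treatment field reads 4 dpf and the highest of its age. TRPM5 did not pass, at a log2 fold change of 1.15 (SE 0.41, edgeR adjusted p = 0.0648). It passed without 3 dpf replicate 3 (log2 fold change 1.59, edgeR adjusted p = 0.0315), without 5 dpf replicate 1 (1.33, edgeR adjusted p = 0.0240) and in 5 of the 15 alternatives in all, over which the adjusted p ran from 0.00166 to 0.212.

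AVIL (ENSDARG00000059342, chromosome 11, 169394 to 183328, minus strand) encodes advillin, an actin-binding protein of the villin family that marks tuft cells and some sensory neurons in mammals. The 3 dpf replicates were close together at 0.802, 0.813 and 0.914 CPM, and the 5 dpf replicates measured 6.95, 3.10 and 3.202 CPM. All 5 dpf libraries were above all 3 dpf libraries. Here 5 dpf replicate 1 was the highest library, whereas for rgs13a, pou2f3, TRPM5, ptgs1 and the ALOX5 gene on chromosome 13 it was the lowest at that age. AVIL rose by a log2 fold change of 2.39 (SE 0.40, edgeR adjusted p = 0.00577) and passed in all 15 alternatives (adjusted p 1.56e-07, with DESeq2, to 0.0357).

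The enzyme 5-lipoxygenase starts leukotriene synthesis from arachidonic acid. The ALOX5 gene on chromosome 13 (ENSDARG00000057273, 18128275 to 18174864, minus strand) measured 1.59, 1.52 and 1.47 CPM in the 3 dpf replicates and 6.26, 16.1 and 19.0 CPM in the 5 dpf replicates. The ages were far apart, with 5 dpf replicate 1 well below the other 5 dpf libraries and still 3.93 times the highest 3 dpf library. ALOX5 on chromosome 13 rose by a log2 fold change of 3.17 (SE 0.42, edgeR adjusted p = 0.00312), which held in all 15 alternatives (adjusted p 1.72e-11, with DESeq2, to 0.0216). The RefSeq gene table, which is for another assembly (GRCz12tu), places alox5a on chromosome 13 and alox5b copies on chromosome 15, but does not link them to the Ensembl IDs.

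The ALOX5 gene on chromosome 15 (ENSDARG00000043085, 942531 to 952891, minus strand) was near the limit of detection, with 15, 3 and 6 counts at 3 dpf and 28, 3 and 10 counts at 5 dpf. The groups overlapped, and 5 dpf replicate 1 held most of its 5 dpf level (0.367 CPM against 0.0211 and 0.0704). Its log2 fold change of 1.01 (SE 1.11, edgeR adjusted p = 0.517) turned to -0.63 without 5 dpf replicate 1. The headers give no option to count reads that fit more than 1 place, so the ALOX5 copies can be understated where their sequences are alike.

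ptgs1 (ENSDARG00000052148, chromosome 5, 64900223 to 64946436, plus strand) encodes cyclooxygenase 1, which starts prostaglandin synthesis. It measured 1.17, 0.813 and 1.24 CPM in the 3 dpf replicates and 0.956, 3.25 and 3.14 CPM in the 5 dpf replicates. At 5 dpf, replicates 2 and 3 were above every 3 dpf library, while replicate 1 lay within the 3 dpf range at 0.889 times the 3 dpf mean. The log2 fold change was 1.19 (SE 0.50) and did not pass (edgeR adjusted p = 0.106). Without 5 dpf replicate 1 it was 1.57 and passed (edgeR adjusted p = 0.00389), and over the 15 alternatives the adjusted p ran from 0.00357 to 0.277.

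**Figure D2:**
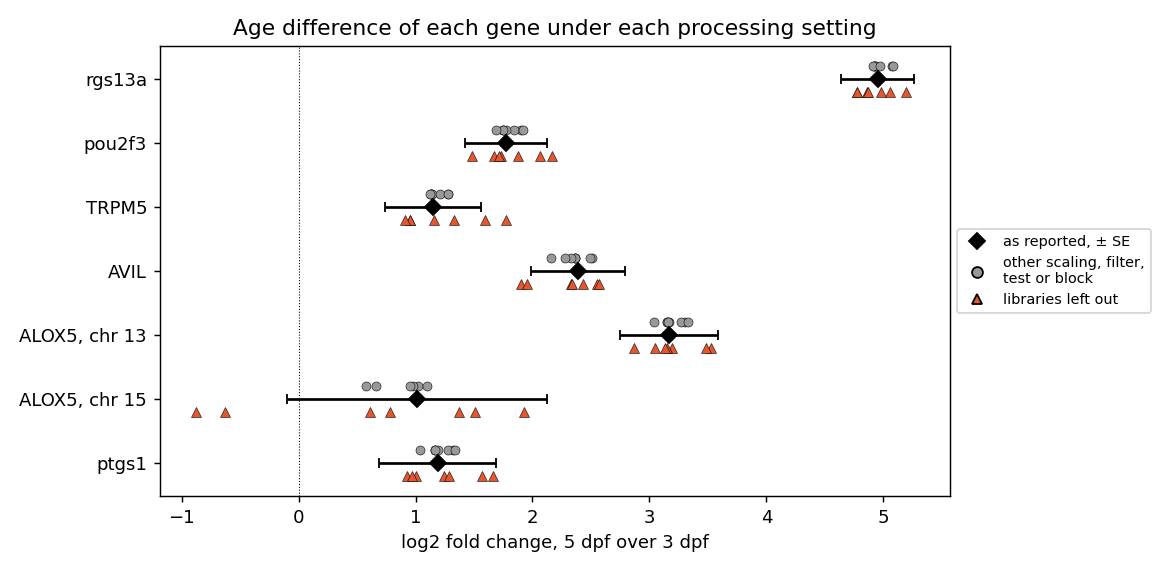
Log2 fold change of each gene (horizontal axis, 5 dpf over 3 dpf) as reported with its standard error (black diamonds), under another scaling, filter, test or replicate block (grey circles) and with libraries left out (red triangles). The ALOX5 gene on chromosome 15 is the one gene with points on both sides of 0, from -0.88 to 1.93, and rgs13a stays between 4.77 and 5.19.

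Taken gene by gene, pou2f3, TRPM5, AVIL and the ALOX5 gene on chromosome 13 exceeded every 3 dpf library in each of the 5 dpf libraries. The same held for 26.1% of all genes tested. ptgs1 did so in replicates 2 and 3 alone, and the ALOX5 gene on chromosome 15 in replicate 1 alone. The summed level of the 6 genes was 8.998, 8.08 and 11.1 CPM in the 3 dpf replicates and 25.3, 42.8 and 48.8 CPM in the 5 dpf replicates. Every 5 dpf sum was above every 3 dpf sum, with replicate 1 the lowest. rgs13a made up 4.95 to 10.1% of the summed CPM of all 7 genes at 3 dpf and 31.4 to 43.8% at 5 dpf. Its choice by this contrast fixes the direction of that shift. No correlation between the genes is given, because the 6 libraries fall into the ages as separate groups of 3.

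Levels between genes were compared as CPM per kilobase of exon. At 3 dpf pou2f3 was the highest at 1.92 ± 0.284 (mean ± SD, n = 3) and did not overlap the next gene. ALOX5 on chromosome 13 (0.720 ± 0.0294), rgs13a (0.592 ± 0.176), ptgs1 (0.434 ± 0.0925), TRPM5 (0.352 ± 0.164) and AVIL (0.319 ± 0.0233) followed in CPM per kilobase, each overlapping its neighbour in the order. At 5 dpf rgs13a stood apart at 18.2 ± 3.31 CPM per kilobase, followed by pou2f3 (6.55 ± 2.67) and ALOX5 on chromosome 13 (6.50 ± 3.15), whose ranges overlapped. AVIL (1.67 ± 0.830), ptgs1 (0.987 ± 0.522) and TRPM5 (0.783 ± 0.216) formed the lower end in CPM per kilobase and overlapped neighbour by neighbour. The ALOX5 gene on chromosome 15 was last and separate at both ages (0.0309 ± 0.0265 and 0.0651 ± 0.0797). Among all genes tested, rgs13a moved from the 32.1 percentile of CPM per kilobase at 3 dpf to the 86.0 percentile at 5 dpf, while TRPM5 stood at the 26.2 and 29.5 percentile.

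Likeness of profile was measured as the root mean square, over the 6 libraries, of the difference in log2 CPM after each gene was centred on its own mean. It describes these libraries and uses the rise that chose rgs13a. The 5 genes closest to rgs13a among 16580 were si:ch73-56d11.3 (0.32), sult5a1 (0.34), the unnamed genes ENSDARG00000104134 (0.36) and ENSDARG00000099098 (0.37), and p2rx1 (0.37). sult5a1 belongs to the sulfotransferases and p2rx1 encodes an ATP-gated channel, which stood at 0.620, 0.486 and 0.540 CPM in the 3 dpf replicates and 23.1, 20.1 and 11.97 CPM in the 5 dpf replicates. Of the listed genes ALOX5 on chromosome 13 was nearest to rgs13a, at a distance of 1.07 and rank 392. AVIL followed at 1.46 (rank 969) and pou2f3 at 1.69 (rank 1540). The shortest distances between listed genes were 0.42 for pou2f3 and ptgs1 and 0.44 for pou2f3 and TRPM5. Counted from pou2f3 these were ranks 593 and 646 of 16580, so many genes off the list were closer. Both pairs had 5 dpf replicate 1 as the lowest library of its age.

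rgs1 and rgs18, which encode regulators of the same family and follow rgs13a on chromosome 2, stayed under 1 CPM in every library. rgs1 was at 0 in all libraries but 5 dpf replicates 2 and 3, where it measured 0.0211 and 0.155 CPM. rgs18 measured 0.0573, 0.0354 and 0.0318 CPM in the 3 dpf replicates and 0.0524, 0.955 and 0.605 in the 5 dpf replicates. Neither passed the filter, so neither was tested. RGS13 (ENSDARG00000100835, chromosome 22, 24264633 to 24271629), the other gene of that name, had 0, 11 and 8 counts at 3 dpf and 139, 234 and 253 at 5 dpf. Its 5 dpf libraries were close together at 1.82, 1.64 and 1.78 CPM, and RGS13 rose by a log2 fold change of 4.98 (SE 0.85, edgeR adjusted p = 0.00594, or 5.65 without 3 dpf replicate 2).

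Other genes of the tuft cell pathway were followed through a list of 138 entries by role, taken from textbook knowledge with earlier results of these data known. Of these entries 26 matched no gene name. The list matched 113 genes besides the 7 above, of which 93 passed the filter. Of these 93 genes 44 rose and 2 fell, that is 47.3% and 2.15%, against 18.1% and 14.1% of all genes tested, and the median log2 fold change was 1.00 against 0.09. Some of the 44, among them sh2d7, RGS13, spi1a and GNAT1, passed the filter with the help of their 5 dpf counts. Their 3 dpf libraries alone would not have met it. The same filter set the shares over all genes tested. The number that rose was 25 without 3 dpf replicate 1 and 29 without 3 dpf replicate 2. Over all genes tested 1777 and 2120 were called higher there, against 4045 with all libraries. The number that fell was 6 without 5 dpf replicate 1, where 4880 of all genes tested were called lower, against 3149 with all libraries. With both 5 dpf replicate 1 and 3 dpf replicate 3 left out, 54 rose and 8 fell. Over all genes tested 6294 were then called higher and 5608 lower.

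**Figure D3:**
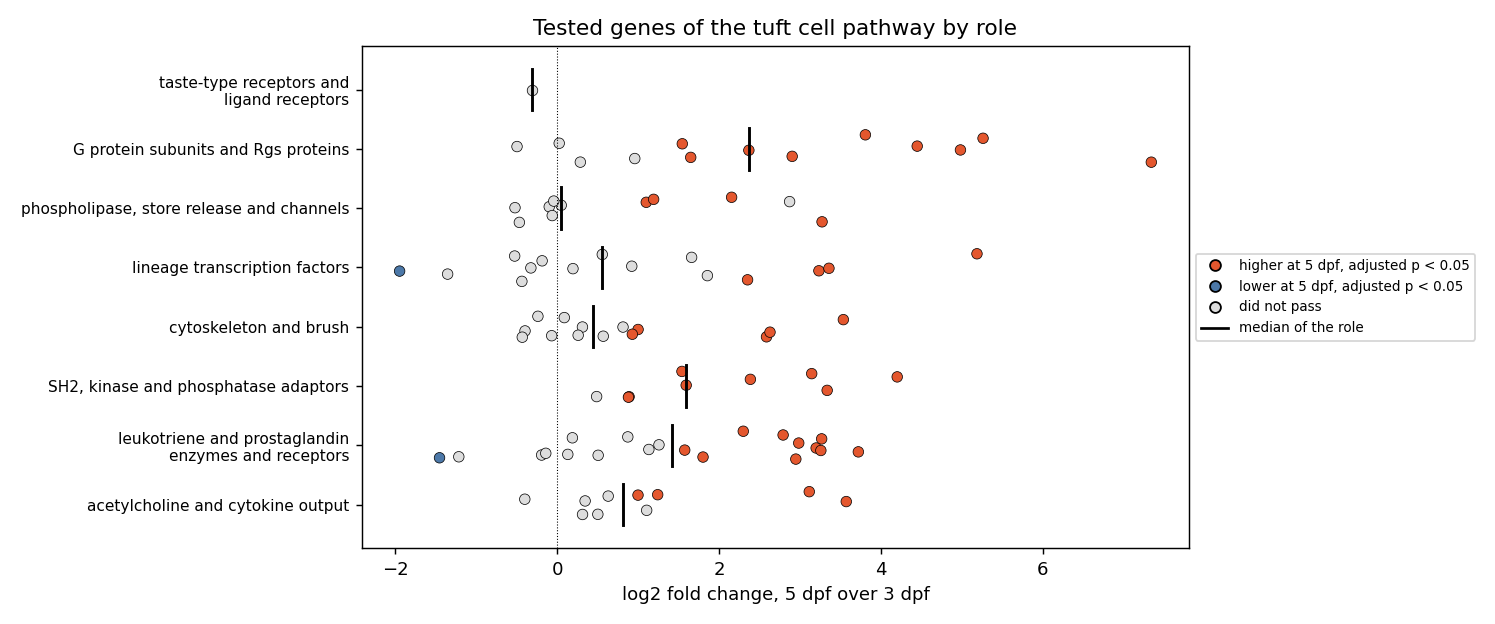
Log2 fold change (5 dpf over 3 dpf, horizontal axis) of the 93 tested pathway genes by role, coloured by whether they passed edgeR's test, with a line at the median of each role. The medians are 2.37 for G protein subunits and Rgs proteins, 1.59 for SH2, kinase and phosphatase adaptors, and 0.05 for phospholipases, store release and channels.

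At the top of the pathway every matched taste-type receptor was low. The entries tas2r201.1, tas2r202, sucnr1, ffar3, gpr35a and gpr35b matched no gene name, so these receptors were not followed. All 6 matched receptor genes stayed under 1 CPM in every library, and 1 of them was tested and did not pass (tas1r1, 0.174 ± 0.0375 CPM at 3 dpf and 0.136 ± 0.119 at 5 dpf). tas1r3, which was not tested, measured 0.00954, 0.0530 and 0.0159 CPM in the 3 dpf replicates and 0, 0.260 and 0.57 CPM in the 5 dpf replicates. With 5 dpf replicate 1 left out, 2 receptor genes were tested and 1 rose, where 5748 of all 23197 genes tested were called higher. The entries gnat3 and rgs21 matched no gene name either and were not followed. Among 13 tested G protein subunits and Rgs proteins 9 rose, against 18.1% of all genes tested, and the others did not pass. One of the others was gnb1b, a widely used beta subunit at 306 ± 23.6 and 217 ± 12.03 CPM (edgeR adjusted p = 0.0823). Its 3 dpf libraries all lay above its 5 dpf libraries, as for 24.2% of all genes tested. Without 3 dpf replicate 1, 4 of 14 tested genes of this role rose, and without 3 dpf replicate 2, 5 of 14. Over all genes tested, 1777 of 23298 and 2120 of 23244 were called higher in these settings. GNG13, the gamma subunit of taste and tuft cell signalling in the mouse, measured 0.782, 0.610 and 1.37 CPM in the 3 dpf replicates and 6.57, 17.6 and 14.6 CPM in the 5 dpf replicates. It rose by a log2 fold change of 3.81 (SE 0.49, edgeR adjusted p = 0.00280) and was lowest at 5 dpf in replicate 1.

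Of the same role, GNAT1, GNAT2 and gnb3b rose by log2 fold changes of 7.34, 5.26 and 4.45, and these are best known as rod and cone transducin subunits of the eye. GNAT1 measured 0.223, 11.3 and 4.00 CPM in the 5 dpf replicates. Of the photoreceptor markers, a list added after these values were seen, 6 of 12 tested rose, against 18.1% of all genes tested. The summed level of that list was 2.77 to 4.54 CPM at 3 dpf and 11.3 CPM in 5 dpf replicate 1, up to 334 CPM in replicate 2. The part of photoreceptor RNA in the transducin values was not tested. The calls for GNAT1 and gnb3b ended without 3 dpf replicate 1 or 2, and that for gnb3b also without 5 dpf replicate 2, with edgeR adjusted p up to 0.0640 and 0.0784. Without 5 dpf replicate 2 the log2 fold changes of GNAT1, GNAT2 and gnb3b were 6.07, 4.55 and 3.46, and without 3 dpf replicate 3 those of GNAT1 and gnb3b were 12.22 and 5.36. With that library left out GNAT1 was at 0 in the remaining 3 dpf libraries, so 12.22 is a fitted value and no bound.

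In the calcium branch 4 of 11 tested genes rose, against 18.1% of all genes tested, and the others did not pass. The 4 are lrmp, PLCG2, ITPR3 and the ITPR1 gene ENSDARG00000074149. lrmp, whose product lies in the endoplasmic reticulum and marks mouse tuft cells, measured 0.916, 1.33 and 2.99 CPM in the 3 dpf replicates and 13.9, 17.1 and 19.6 CPM in the 5 dpf replicates. The groups were far apart, and lrmp rose by a log2 fold change of 3.27 (SE 0.46, edgeR adjusted p = 0.00347), or 3.89 without 3 dpf replicate 3. The inositol trisphosphate receptor genes ITPR3 and ITPR1 (ENSDARG00000074149) rose by 1.19 (SE 0.22) and 2.16 (SE 0.29) on the log2 scale, and the phospholipase gene PLCG2 by 1.101 (SE 0.21). The calls for ITPR3 and PLCG2 ended without 3 dpf replicate 1 (edgeR adjusted p = 0.0533 and 0.0552). PLCB2, the phospholipase that couples taste receptors to Trpm5 in the mouse, was named outside the rule and reached at most 0.366 CPM. ITPR2 and trpm4a, the most abundant genes of the branch that did not pass, had log2 fold changes of 0.05 and -0.04.

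Of 15 tested lineage transcription factors 4 rose and 1 fell, against 18.1% and 14.1% of all genes tested. Without 3 dpf replicate 1, 3 rose, where 1777 of all 23298 genes tested were called higher. Without 5 dpf replicate 1, 6 rose and 2 fell, where 5748 of all 23197 genes tested were called higher and 4880 lower. HMX3, a homeobox factor, rose by a log2 fold change of 2.35 (SE 0.32, edgeR adjusted p = 0.00331), with 1.32 ± 0.148 CPM at 3 dpf and 6.73 ± 2.28 CPM at 5 dpf. spi1a and SPI1, factors of myeloid blood cells and in the mouse also of other lineages, rose by log2 fold changes of 5.19 (SE 0.89, or 6.95 without 3 dpf replicate 2) and 3.36 (SE 0.61). The proneural factor ascl1a fell, at 213 ± 20.2 CPM in the younger and 55.2 ± 24.2 CPM in the older cells (edgeR adjusted p = 0.00713), a log2 fold change of -1.95 (SE 0.35). atoh1b, of the secretory lineage, stood at 110 ± 13.6 and 76.3 ± 21.5 CPM and did not pass (edgeR adjusted p = 0.156), nor did POU2F1 (71.1 ± 14.7 and 27.8 ± 16.5 CPM, edgeR adjusted p = 0.0730). For both, every 3 dpf library lay above every 5 dpf library, as it did for 24.2% of all genes tested.

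Of the SH2 domain, kinase and phosphatase genes 8 of 9 tested rose, against 18.1% of all genes tested. For all 9 every 5 dpf library lay above every 3 dpf library, as it did for 26.1% of all genes tested. sh2d7, an SH2 adaptor that marks tuft cells in the mouse, measured 0.0477, 0.1149 and 0.127 CPM in the 3 dpf replicates and 1.55, 1.81 and 2.06 CPM in the 5 dpf replicates. The ages were widely separated and the 5 dpf libraries close together, and sh2d7 rose by a log2 fold change of 4.20 (SE 0.49, edgeR adjusted p = 0.00220). With 5, 13 and 16 counts at 3 dpf, it needed its 5 dpf libraries to pass the filter. The kinase gene FES rose by 2.39 (SE 0.26), the lipid phosphatase gene INPP5D by 1.59 (SE 0.34), and ptprc, a phosphatase of white blood cells, by 3.34 (SE 0.65) on the log2 scale. INPP5D lost its call when 3 dpf replicate 1 or 2 was left out (edgeR adjusted p up to 0.0619). LYN, a further kinase, stood at 13.6 ± 0.775 and 19.1 ± 3.87 CPM and did not pass (edgeR adjusted p = 0.116). Without 3 dpf replicate 1, and likewise without 3 dpf replicate 2, 4 of these 9 genes passed. Over all genes tested, 1777 of 23298 and 2120 of 23244 were called higher there.

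Genes that act beside ALOX5 and ptgs1 rose in several steps of the same routes. Of 20 tested genes for leukotrienes and prostaglandins 10 rose and 1 fell, against 18.1% and 14.1% of all genes tested. Without 3 dpf replicate 1, 7 of 20 rose and 1 fell, and without 3 dpf replicate 2, 7 of 21 rose and 1 fell. Over all genes tested, 1777 and 2120 were called higher there, and 1226 and 1470 lower. The entries hpgds and cysltr2 matched no gene name and were not followed. ALOX5AP, the protein that hands arachidonic acid to 5-lipoxygenase, measured 0.0954, 0.0972 and 0.215 CPM in the 3 dpf replicates and 1.14, 1.75 and 2.54 CPM in the 5 dpf replicates. All 5 dpf libraries were higher, and ALOX5AP rose by a log2 fold change of 3.72 (SE 0.54, edgeR adjusted p = 0.00387). LTC4S, leukotriene C4 synthase, rose by 3.27 (SE 0.62), the leukotriene receptor gene cysltr3 by 2.95 (SE 0.61), and the prostaglandin D synthase genes ptgdsb.1 and ptgdsb.2 by 2.98 (SE 0.46) and 3.199 (SE 0.39) on the log2 scale. cysltr3 lost its call when 3 dpf replicate 1 or 2 was left out (edgeR adjusted p up to 0.0547). LTA4H, leukotriene A4 hydrolase, at 118 ± 19.1 and 217 ± 115.4 CPM, did not pass (edgeR adjusted p = 0.114). The gene that fell, named outside the rule, was a PTGES3 copy (ENSDARG00000089626, log2 fold change -1.45), a chaperone cofactor that also has prostaglandin E synthase activity.

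The output genes that were matched were mostly low. The entries il25, il17rb and tslp matched no gene name and were not followed. Of 16 matched genes for acetylcholine and cytokines, 12 stayed under 1 CPM in every library. Of 10 tested 4 rose, against 18.1% of all genes tested. ACHE, which breaks down acetylcholine, rose by a log2 fold change of 1.24 (SE 0.21, edgeR adjusted p = 0.00541), with 9.31 ± 1.54 CPM at 3 dpf and 22.0 ± 2.26 CPM at 5 dpf. il13ra1, a receptor chain for interleukins 4 and 13, rose by 1.00 (SE 0.32), a call that ended without any of the 3 dpf replicates or without 5 dpf replicate 2 (edgeR adjusted p up to 0.156). CHAT, which makes acetylcholine and was named outside the rule, measured 0.210 to 0.381 CPM at 3 dpf and 0.449 to 0.507 at 5 dpf (edgeR adjusted p = 0.312).

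Among 14 tested genes of the cytoskeleton and brush, 5 rose, against 18.1% of all genes tested, and the others did not pass. VILL, a villin-like gene, rose by 3.54 (SE 0.44), krt18b, a keratin gene, by 2.63 (SE 0.23), and ESPN, an actin bundler, by 2.59 (SE 0.49, or 1.88 without 5 dpf replicate 1) on the log2 scale. VIL1 and PLS1, genes of the enterocyte brush border too, rose by 1.00 (SE 0.31) and 0.93 (SE 0.22). The VIL1 and PLS1 calls ended without any one of the 3 dpf replicates, and that of VIL1 also without 5 dpf replicate 2 (edgeR adjusted p up to 0.158 and 0.101). Both DCLK1 genes, named outside the rule because Dclk1 is a tuft cell marker of the mouse, did not pass (log2 fold changes -0.40 and -0.43, edgeR adjusted p = 0.596 and 0.268). The ages overlapped for the first. For the second every 3 dpf library lay above every 5 dpf library, as for 24.2% of all genes tested.

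Several genes above are known from other cells, so markers of those cells were read in the same libraries. Of the leukocyte markers, 7 of 20 tested rose, against 18.1% of all genes tested. The summed level of the list was 11.7 to 18.6 CPM at 3 dpf and 26.8 to 57.8 CPM at 5 dpf. ptprc and SPI1 stand on this list as well as among the pathway genes. Of the 26 leukocyte genes 13 stayed under 1 CPM in every library, while LCP1 measured 6.10, 13.8 and 10.3 CPM in the 5 dpf replicates. MPEG1 (ENSDARG00000078569), a macrophage gene, was at 0 in all libraries but 1. This gene and LCP1 were named after their values were seen. They do not stand for the list, of which 7 of 20 tested genes rose. The most abundant marker, MPEG1 (ENSDARG00000043093), stood at 6.31 ± 1.80 and 7.42 ± 1.95 CPM. The part of leukocyte RNA in the values of ALOX5, ptgs1, ALOX5AP and LTC4S was not tested.

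Thrombocyte markers rose in 5 of 9 tested genes, against 18.1% of all genes tested. Their summed level was 59.9 to 192 CPM at 3 dpf and 54.2 to 110.2 CPM at 5 dpf, most of it from THBS1 (ENSDARG00000010785, 115.1 ± 64.8 and 48.7 ± 13.9 CPM). Of the 11 thrombocyte genes 5 stayed under 1 CPM in every library, and the median log2 fold change of the 9 tested was 1.94. itga2b and mpl, named after their values were seen, were at 0 in 5 dpf replicate 1 and below 0.5 CPM elsewhere. They do not stand for the list, of which 5 of 9 tested genes rose. The part of thrombocyte RNA in the ptgs1 values was not tested. Markers of hair cells and sensory neurons, where avil genes are also active, rose in 2 of 18 tested genes. This count stands beside 18.1% of all genes tested that were called higher. The summed level of the list was 363 to 449 CPM at 3 dpf and 437 to 566 CPM at 5 dpf. Its most abundant marker was MYO6 (ENSDARG00000044016), and 9 of its 20 genes stayed under 1 CPM in every library. The part of RNA from such cells in the AVIL values was not tested.

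Of the markers of other epithelial cells, those that rose were 15 of 17 tested for enterocytes, 7 of 9 for goblet cells, 6 of 8 for BEST4-type cells and 8 of 20 for enteroendocrine cells, in which 2 fell. Epidermis markers rose in 6 of 9, ionocyte markers in 4 of 11 with 1 that fell, endothelial markers in 5 of 7, exocrine pancreas markers in 13 of 14 and liver markers in 2 of 10 with 1 that fell. These counts stand beside 18.1% of all genes tested that were called higher and 14.1% called lower, and the liver count is near that share. No difference between lists was tested. The summed level of the exocrine pancreas list was 4.03 to 4.47 CPM at 3 dpf and 362 to 1226 CPM at 5 dpf. Whether this RNA came from cells that carried the reporter was not tested.

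5 dpf replicate 1, the library with the high mitochondrial share, differed from the other 5 dpf libraries along these lists. The log2 ratio of this library to the mean of replicates 2 and 3 had a median of -0.04 over all genes tested, -0.40 over the 93 tested pathway genes and -0.87 over the 6 listed tuft-type genes. ptgs1 (-1.72), ALOX5 on chromosome 13 (-1.48), pou2f3 (-1.12) and TRPM5 (-0.61) were lower there, and rgs13a was lower by less (-0.34). AVIL (1.14) and the ALOX5 gene on chromosome 15 (2.73) were higher there. The median was -1.32 for leukocyte markers, -0.82 for BEST4-type markers, -0.69 for enteroendocrine markers and 1.88 for enterocyte markers. What sets this library apart was not tested.

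**Figure D4:**
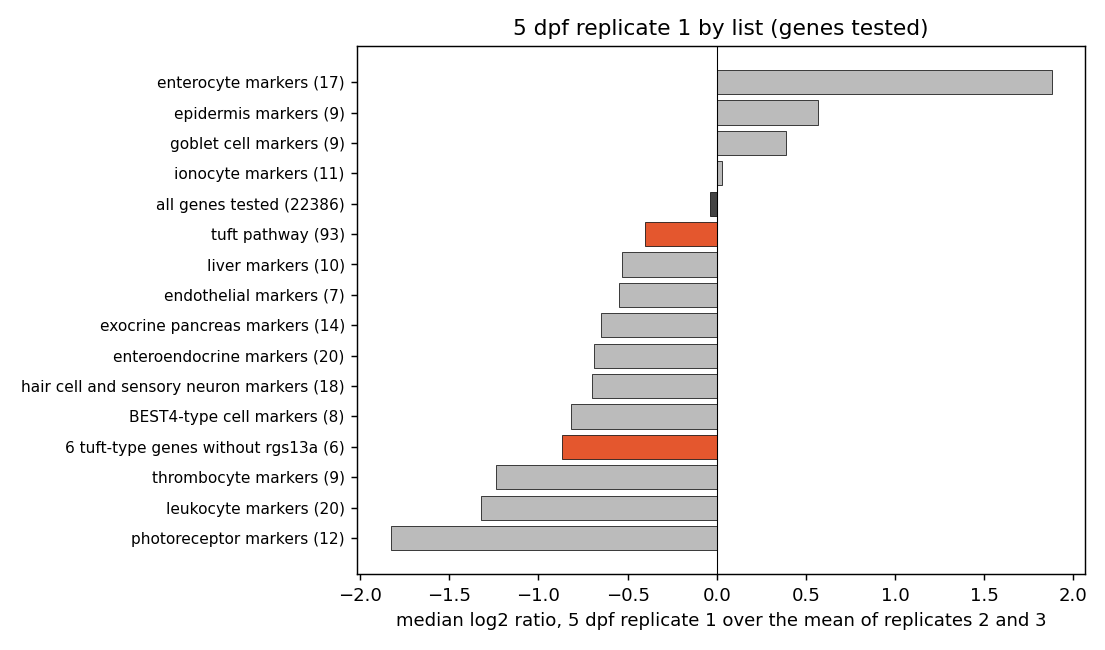
For each list, the median over its genes of the log2 ratio between 5 dpf replicate 1 and the mean of replicates 2 and 3 of that age (horizontal axis), with the number of tested genes in brackets, tuft-type lists in red and all genes tested in dark grey. The 6 tuft-type genes lie at -0.87, between the BEST4-type markers at -0.82 and the thrombocyte markers at -1.24, and the enterocyte markers lie at 1.88.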

How the data were processed

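Per library the authors deposited 1 table of raw fragment counts by gene, with no normalization. Their headers record featureCounts 1.6.3 on read pairs, with exons summed by gene, a strand setting of 2 and the GRCz11 annotation of Ensembl 115, per the file headers. The submitters' processing notes name Trimmomatic 0.38 and STAR 2.7.11. Of 32520 genes 29201 were paired with a symbol, some in human style.

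edgeR 4.0.16 in R 4.3.3 tested each gene (quasi-likelihood F-test, two-sided) with TMM scaling and age as the single term. filterByExpr kept 22386 genes (minimum count 10, minimum total 15), over which p-values were adjusted by the Benjamini-Hochberg method, and genes under 0.05 were called. The filter asks for enough counts in 3 libraries of either age, so a gene can pass through the age where it is high. The standard error is the size of the log2 fold change divided by the root of the F statistic, and log2 CPM used a prior count of 2. The method was tested on simulated data. Libraries are pools of larvae, so a p-value describes the spread between these pools, which may be technical. An exact permutation test of 3 against 3 cannot go below 0.1.

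List entries were matched by name, case ignored, then without a copy suffix. The genes, lists and tests were chosen with earlier results of these data known. By rule, each role contributed up to 5 called genes of at least 1 CPM by size of change and the 2 most abundant genes not called, each marker list its most abundant gene, and rgs13a its 5 closest profiles; some of these are not described, a few of them because they are not reported here. Named after their values were seen were PLCB2, CHAT, DCLK1, PTGS2, rgs1, rgs18, LCP1, itga2b, mpl, and 1 copy each of PTGES3 and MPEG1. Alternatives were other scalings and filters, DESeq2, leaving out mitochondrial genes, a replicate block, and libraries left out.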

Additional observations from a re-analysis of the deposited data

How the results depend on the processing

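pou2f3, AVIL and the ALOX5 gene on chromosome 13 kept their direction under all 15 alternatives, and their call too, except pou2f3 with library size as the only scaling (log2 fold change 1.84, edgeR adjusted p = 0.0508). With each library left out in turn the log2 fold change ran from 4.77 to 5.19 for rgs13a, 1.48 to 2.06 for pou2f3, 0.91 to 1.59 for TRPM5, 1.90 to 2.57 for AVIL, 2.87 to 3.53 and -0.63 to 1.93 for ALOX5 on chromosomes 13 and 15, and 0.93 to 1.57 for ptgs1. ALOX5 on chromosome 15 did not pass the filter of 1 CPM, nor the usual filter once mitochondrial genes were left out, so it has no value there. TRPM5 passed with DESeq2 1.42.0 (1.13) and with a filter of 1 CPM in 3 libraries (1.28). Without both 5 dpf replicate 1 and 3 dpf replicate 3, TRPM5 (1.77) and ptgs1 (1.66) passed and ALOX5 on chromosome 15 turned to -0.88 without passing, and 5 of the 6 listed genes were called higher and 54 pathway genes higher and 8 lower. With DESeq2 4 of 93 pathway genes were lower, as were 4068 of all 22386 genes tested. Leaving out single libraries gave 3 to 5 listed genes higher, 25 to 53 pathway genes higher and 2 to 6 lower. Over all genes it gave 1777 to 5748 higher and 1226 to 4880 lower, against 4045 and 3149 as reported. Library size scaling gave 2512 and 1337, and leaving out both libraries 6294 and 5608. Over all genes the median log2 difference was 0.22 with upper quartile scaling and 0.09 as reported. Where a value changed, the cause was not tested.

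Across genes, libraries with the same number deviated from their age means with correlations of 0.092, -0.217 and 0.193, and no label says that the numbers pair the pools. With the number as a replicate block 3 of the 6 listed genes, the same number as without it, and 38 of 93 pathway genes were called higher. Over all genes tested, 3297 of 22386 were called higher with the block. The ALOX5 gene on chromosome 15 rests on 3 to 28 counts per library, and the standard error of its log2 fold change was 1.11.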
